A study of Mus musculus with 6 samples.

Results

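Cd36, Lpl, Fabp3, Fabp4, Plin2, Plin4, Plin5, Pnpla2, Dgat2 and Angptl4 encode proteins of fatty acid uptake and of the making, coating and breakdown of lipid droplets, and a secreted inhibitor of that uptake. The 10 genes were taken by name from a count table of 54532 mouse genes, for what their proteins do and with earlier results of these data known. All 10 passed the low-count filter that left 14774 genes for testing. The question put to them was whether their RNA differed between pressure-overloaded hearts with and without a cardiomyocyte HINT2 transgene. None of the 10 passed edgeR's test, as none of the 14774 genes did (0%), and the largest fitted differences were 0.84 on the log2 scale in Dgat2 (SE 0.31, n = 3 per group), higher in TG, and -1.30 in Angptl4 (SE 0.59), lower in TG. Without the library NTG 1, which stood apart, Dgat2 passed (edgeR adjusted p = 0.0215), where 5.52% of all genes did. NTG 1 was the NTG library nearest to TG, so leaving it out favours such calls. No member passed with any other single library left out.

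The data were poly-A selected RNA-seq libraries of left ventricle, 1 library per heart, from 3 TG and 3 NTG male mice that were 8 to 10 weeks old at surgery. All 6 mice had aortic banding (AB), a narrowing of the aorta that loads the left ventricle, 4 weeks before the tissue was taken, and no unbanded heart was analysed here. TG mice, with the genotype given as HINT2CTG-Myh6Cre, carried human HINT2 behind a CAG promoter and a Myh6-driven Cre that restricts expression to cardiomyocytes, and they received tamoxifen at 5 mg/kg per day for 7 days to switch the transgene on. NTG mice were C57BL/6J, and whether they carried Cre or received tamoxifen is not stated, so the transgene, Cre and tamoxifen cannot be told apart here.

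The heart takes most of its fuel from fatty acids. Lipoprotein lipase frees them from circulating triglyceride at the capillary wall, a membrane transporter and cytosolic carriers move them inwards, and what is not burned at once is esterified into triglyceride and kept in droplets. Perilipins coat the droplet surface and govern how far lipases reach the stored fat, which a lipase later releases for the mitochondria.

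The perilipin genes are shown first by sequence, because the 3 coat genes among the members lay on both sides of 0 in the comparison below. Plin2 occupies chr4:86648386-86670060, Plin4 chr17:56100591-56109803 and Plin5 chr17:56111601-56117596 (GRCm38, all on the minus strand), and Plin4 and Plin5 are neighbours with 1797 bases between them. The windows run from 250 bases before to 50 after a RefSeq start site (GRCm38.p6, minus strand, 5′ to 3′), at chr4:86670010-86670309, chr17:56109733-56110032 and chr17:56117499-56117798. Capitals mark AGGTCA, the core hexamer bound by nuclear receptors such as the PPARs, or its reverse complement.
Plin2: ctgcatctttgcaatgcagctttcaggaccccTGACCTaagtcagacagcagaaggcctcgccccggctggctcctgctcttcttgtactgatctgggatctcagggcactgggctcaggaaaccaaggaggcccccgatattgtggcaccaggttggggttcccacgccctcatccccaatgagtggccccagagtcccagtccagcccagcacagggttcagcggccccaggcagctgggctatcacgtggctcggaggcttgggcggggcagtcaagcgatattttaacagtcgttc
Plin4: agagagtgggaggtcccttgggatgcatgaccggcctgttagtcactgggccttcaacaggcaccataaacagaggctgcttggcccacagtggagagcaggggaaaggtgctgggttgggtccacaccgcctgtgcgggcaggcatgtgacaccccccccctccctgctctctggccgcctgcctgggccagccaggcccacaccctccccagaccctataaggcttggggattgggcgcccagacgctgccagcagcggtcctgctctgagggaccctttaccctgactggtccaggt
Plin5: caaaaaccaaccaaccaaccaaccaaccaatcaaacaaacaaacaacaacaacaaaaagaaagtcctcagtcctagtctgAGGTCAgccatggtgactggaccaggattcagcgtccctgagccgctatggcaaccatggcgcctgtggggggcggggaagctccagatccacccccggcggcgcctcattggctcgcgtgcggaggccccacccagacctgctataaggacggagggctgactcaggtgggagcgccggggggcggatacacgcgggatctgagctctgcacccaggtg
AGGTCA, searched on both strands, lay at position -218 from the start site in Plin2 (reverse strand) and at -170 in Plin5, and the Plin4 window had no match. RefSeq windows were matched for 6 of the 10 members, with 7 windows in all because Plin5 has a second start, and 4 of these 7 windows, of Cd36, Plin2 and Plin5, held the hexamer, which 16.3% of all 32851 windows of the same length hold. No member window held the direct repeat of AGGTCA with a single base in between, found in 0.0396% of all windows. CACGTG, an E-box, was at position -4 in Plin2, and 7.15% of all windows hold it. GGGCGG, a GC box, was in the windows of Cd36, Plin2, Plin5 and Pnpla2, and 35.7% of all windows hold it, while TATAAA, in 13.6% of all windows, was in none of the 7. Matches of a few letters describe the windows and are not measured sites of binding.

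Sequencing depth was similar, with 14863568 to 17581220 counts in each NTG library and 14944465 to 17235802 in each TG library, and the 10 genes took 0.749% to 0.96% of them. Genes of the mitochondrial genome took 19.17%, 13.44% and 14.27% of the counts in NTG 1 to 3 and 21.45%, 15.95% and 20.33% in TG 1 to 3. This share was lowest in NTG 2 and, within TG, in TG 2. Mouse Hint2 had 12 counts in NTG 1, against 545 and 559 in the other NTG libraries and 793 to 859 in TG, and NTG 1 also stood nearer to TG than to NTG on the first principal component of all genes (-5.1, against 55.7 and 29.3 in NTG and -36.5 to -10.7 in TG). Fold changes without NTG 1 are therefore given for each member, with counts of calls for the wider pathway as a whole and for fatty acid oxidation. Leaving out the NTG library nearest to TG favours larger differences and more calls. The tissue was heart muscle by its markers, as 14 cardiomyocyte genes, such as Myh6, Myh7 and Tnnt2, summed to 35561 to 59883 CPM (counts relative to library size, scaled by the TMM method) in each library, while the chamber named by the label was not checked against others.

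Fat tissue on the heart would bring its own Fabp4, Plin4, Lpl, Cd36 and Dgat2 RNA, so adipocyte markers were read first. Of 11 adipocyte markers, Adipoq did not exceed 0.988 CPM, Lep had no count in any library, and only Cfd and Lipe passed the low-count filter. Lipe, a lipase that heart muscle also makes, was at 51.0 to 73.1 CPM. TG 3 had the highest CPM of 7 of the 11 (Adipoq, Cfd, Retn, Plin1, Cidec, Adig and Pck1), with 16 counts of Adipoq against at most 2 in any other library, 13 of Plin1 against at most 8, and 92 of Cfd against at most 24. The part of this RNA in the members' values of TG 3 was not tested, and without TG 3 the members' median log2 fold change was 0.19. Of 8 brown adipocyte markers, 5 passed the low-count filter, 4 higher and 1 lower in TG by fitted value, with a median log2 fold change of 0.51. Ucp1 did not exceed 0.114 CPM, while Cidea, a droplet protein on the same list, was at 22.3 to 29.7 CPM. The others that passed, named after their values were seen, were Ppargc1a (26.8 to 150.2 CPM), Dio2 (8.09 to 112), Cox7a1 (162 to 428) and Cox8b (236 to 528). Endothelial markers, which matter because capillary cells also carry Cd36 and Fabp4, summed to 3134, 3277 and 3551 CPM in NTG and 3403, 3396 and 3033 CPM in TG. Among these 12 genes, such as Pecam1, Cdh5 and Kdr, 6 were higher and 6 lower in TG by fitted value, with a median log2 fold change of 0.02. In bulk tissue, fewer cells of a type and less RNA per cell cannot be told apart.

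Per kilobase of gene length, the members spanned a wide range of levels. The mean over all 6 libraries was 3177 CPM per kilobase of gene length (RPKM) for Fabp3, the heart-type fatty acid carrier, 434 RPKM for Cd36 and 299.5 RPKM for Lpl. Fabp4 at 169 RPKM, Pnpla2 at 88.2 and Dgat2 at 70.4 came next. The perilipins were at 34.6 RPKM for Plin5, 20.7 for Plin2 and 20.5 for Plin4, and Angptl4 was lowest at 7.66 RPKM. Within each library, every gene in this order exceeded the next in all 6 libraries, except that Plin2 exceeded Plin4 in 4 of 6 and Plin4 exceeded Angptl4 in 5 of 6. Between libraries the ranges of neighbours overlapped for Pnpla2 and Dgat2, Dgat2 and Plin5, Plin2 and Plin4, and Plin4 and Angptl4. The middle of the order depends on which exons count as the gene, as the table's length of Fabp4 (4489 bases) is its whole span, introns included. With protein-coding exons only, an alternative chosen after seeing the data, Fabp4 came to 849 RPKM and Lpl to 763 RPKM, both above Cd36 at 434 RPKM, and Plin2 to 34.4 RPKM, next to Plin5 at 34.6 RPKM. Lpl and Fabp3 alone took 58.9% to 67.6% of the members' counts.

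**Figure D1:**
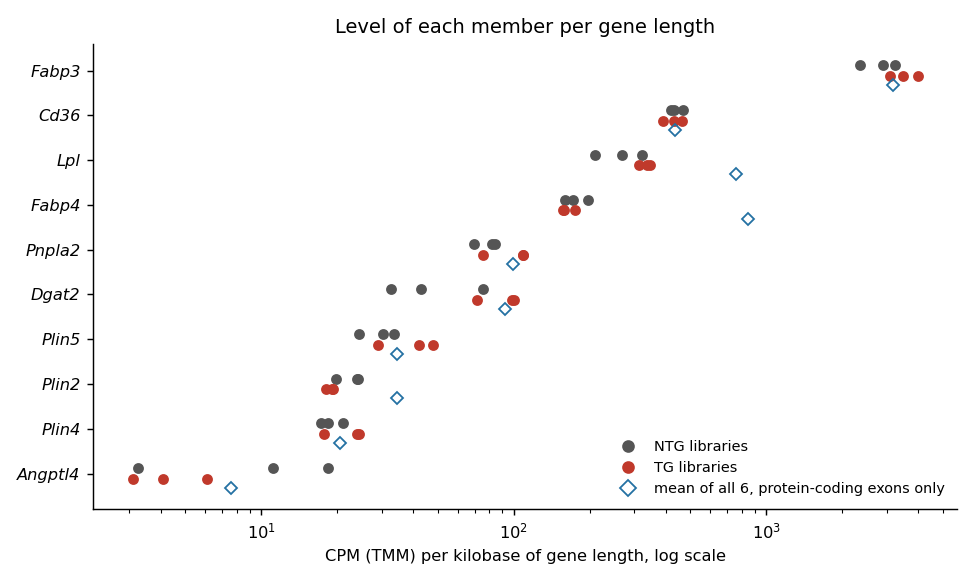
Level of each member in CPM per kilobase of gene length (log scale), with 1 point per library (NTG grey, TG red) and an open diamond for the mean of all 6 libraries when only protein-coding exons enter the length. Fabp3 lies highest at a mean of 3177, Angptl4 lowest at 7.66, and Fabp4 moves from 169 to 849 with the other length.

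At the capillary wall, the lipase and its inhibitor differed in opposite directions, neither past the test. Lpl (chr8:68880491-68907448, plus strand), the lipase itself, was at 3361, 2189.5 and 2815 CPM in NTG 1 to 3 and at 3646, 3297 and 3520.5 CPM in TG 1 to 3. TG libraries sat close together, TG 1 and TG 3 above every NTG library, but NTG 1 lay above TG 2, so the groups overlapped. Means were 2788 ± 586 CPM in NTG and 3488 ± 177 CPM in TG (SD, n = 3), a log2 fold change of 0.32 (SE 0.19, 95% interval -0.11 to 0.76, edgeR adjusted p = 0.381), which became 0.17 without NTG 2 and 0.48 without NTG 1, where the adjusted p was 0.145 by edgeR and 0.0155 by DESeq2. Angptl4 (chr17:33773750-33781575, minus strand), a secreted inhibitor of Lpl that fasting and fatty acids are known to induce, was at 10.7, 60.3 and 36.3 CPM in NTG and at 10.2, 13.4 and 20.1 CPM in TG. NTG 2 and NTG 3 were the highest libraries, and NTG 1 was within the TG range. Its mean was 35.8 ± 24.8 CPM in NTG and 14.5 ± 5.04 CPM in TG, with a log2 fold change of -1.30 (95% interval -2.70 to 0.10, edgeR adjusted p = 0.293). The value went from -0.70 without NTG 2 to -1.73 without NTG 1, where the edgeR adjusted p was 0.0526 and DESeq2's 9.1e-06. The CPM of Lpl over that of Angptl4 was 314, 36.3 and 77.5 in NTG and 359, 246 and 175 in TG, so all TG ratios exceeded those of NTG 2 and NTG 3 while NTG 1 fell among the TG ratios.

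Cd36, the fatty acid transporter of the cell surface, was nearly level across the 6 hearts. Cd36 (chr5:17781690-17888801, minus strand) was at 1543, 1499.8 and 1684 CPM in NTG and at 1669, 1403 and 1548 CPM in TG. The highest library was NTG 3, the lowest TG 2, and the groups lay within each other. Means were 1576 ± 96.1 and 1540.2 ± 133 CPM, a log2 fold change of -0.03 (SE 0.14, edgeR adjusted p = 0.917). Its 95% interval of -0.36 to 0.29 bounds the difference, and the sign turned with single libraries left out, to 0.016 without NTG 3 and 0.03 without TG 2.

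Neither cytosolic carrier passed the test, and the difference between them was not tested. Fabp3 (chr4:130308595-130315463, plus strand), the carrier of cardiac muscle, was at 2658, 1932 and 2384 CPM in NTG and at 3293, 2553 and 2867 CPM in TG. Only TG 2 lay inside the NTG range, just below NTG 1. The means were 2325 ± 367 and 2904 ± 372 CPM, a log2 fold change of 0.32 (SE 0.18, 95% interval -0.10 to 0.74, edgeR adjusted p = 0.367), and 0.20 without NTG 2. Fabp3 overlaps Zcchc17 and Gm10570 at its ends on the other strand, and a processed pseudogene, Fabp3-ps1, held counts equal to 0.369% to 0.596% of those of Fabp3. Fabp4 (chr3:10204088-10208576, minus strand), the carrier of adipocytes, capillary endothelium and macrophages, was at 713, 766 and 883 CPM in NTG and at 787, 709 and 704 CPM in TG. TG 2 and TG 3 were lowest and NTG 3 highest, with TG 1 among the NTG libraries. Its log2 fold change was -0.10 (SE 0.13, 95% interval -0.41 to 0.21, edgeR adjusted p = 0.703), and -0.01 without NTG 3. Fabp3 CPM over Fabp4 CPM was 3.73, 2.52 and 2.70 in NTG and 4.18, 3.60 and 4.07 in TG, with NTG 1 between TG 2 and TG 3.

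Among the droplet coats, Plin2 was lower in TG by mean while Plin4 and Plin5 were higher, again with none past the test. Plin2, the perilipin found on droplets of most cells, was at 69.4, 83.8 and 84.6 CPM in NTG and at 67.9, 66.6 and 63.3 CPM in TG. All 3 TG libraries were below all 3 NTG libraries, but NTG 1 exceeded TG 1 by little. Means were 79.2 ± 8.57 and 66.0 ± 2.37 CPM, a log2 fold change of -0.27 (SE 0.10, 95% interval -0.50 to -0.03), with an unadjusted p of 0.0317 and an adjusted p of 0.231 by edgeR. The exact permutation test gave p = 0.1, the smallest that 3 against 3 libraries allow. Plin2 was the 1 member of 10 whose groups did not overlap, where 23.5% of all genes tested had groups without overlap, so this share was below the background. Without NTG 1 the log2 fold change of Plin2 was -0.35, with an adjusted p of 0.0581 by edgeR and 0.0269 by DESeq2. Macrophages, which carry much Plin2, had 11 markers, such as Adgre1, Cd68 and Csf1r, that summed to 1123, 2035 and 1194 CPM in NTG and 834, 1039 and 1176 CPM in TG, with 0 of 11 higher in TG and a median log2 fold change of -0.56, and their part in the Plin2 values was not tested.

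Plin5, the perilipin of oxidative tissue that holds droplets against mitochondria, was at 69.8, 51.0 and 63.5 CPM in NTG and at 100, 60.7 and 88.0 CPM in TG. TG 1 and TG 3 were above every NTG library, and TG 2 was below NTG 1 and NTG 3. Its log2 fold change was 0.43 (SE 0.20, 95% interval -0.03 to 0.89, edgeR adjusted p = 0.288), and ranged from 0.27 without TG 1 to 0.61 without TG 2. Plin4, a perilipin of fat and muscle, was at 107, 99.9 and 121 CPM in NTG and at 139, 103 and 141 CPM in TG. As in its neighbour Plin5, TG 1 and TG 3 were the highest libraries and TG 2 fell among the NTG libraries. The log2 fold change was 0.22 (SE 0.14, 95% interval -0.11 to 0.55, edgeR adjusted p = 0.419), with 0.14 without TG 3 and 0.36 without TG 2. Plin4 overlaps the end of Hdgfl2 on the other strand, so a few of its counts are uncertain. The CPM of Plin5 over that of Plin2 was 1.01, 0.608 and 0.751 in NTG and 1.47, 0.91 and 1.39 in TG, and TG 2 lay below NTG 1.

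Release and synthesis of stored triglyceride are represented by one enzyme each. Pnpla2 (chr7:141455198-141460743, plus strand), the lipase that makes the first cut in stored triglyceride, was at 247, 209.6 and 254 CPM in NTG and at 328, 229 and 329.8 CPM in TG. TG 2 again lay inside the NTG range and the other TG libraries above it. The means of 237 ± 23.9 and 296 ± 57.6 CPM gave a log2 fold change of 0.32 (SE 0.16, 95% interval -0.05 to 0.70, edgeR adjusted p = 0.323). Dgat2 (chr7:99153658-99182719, minus strand), which adds the last fatty acid to make triglyceride, was at 234, 101 and 133 CPM in NTG and at 309.8, 221 and 303 CPM in TG. NTG 1 lay above TG 2, and without NTG 1 the groups did not overlap. Means were 156 ± 69.2 and 278 ± 49.2 CPM, a log2 fold change of 0.84 (95% interval 0.10 to 1.57), with an unadjusted p of 0.0305 and an adjusted p of 0.23 by edgeR, and a DESeq2 adjusted p of 0.0653. Without NTG 1 the log2 fold change was 1.25 with an edgeR adjusted p of 0.0215, and without NTG 2 it was 0.60 with an adjusted p of 0.502. Dgat2 CPM over Pnpla2 CPM was 0.946 in NTG 1 against 0.483 and 0.522 in the other NTG libraries, and it was 0.944, 0.966 and 0.918 in TG.

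**Figure D2:**
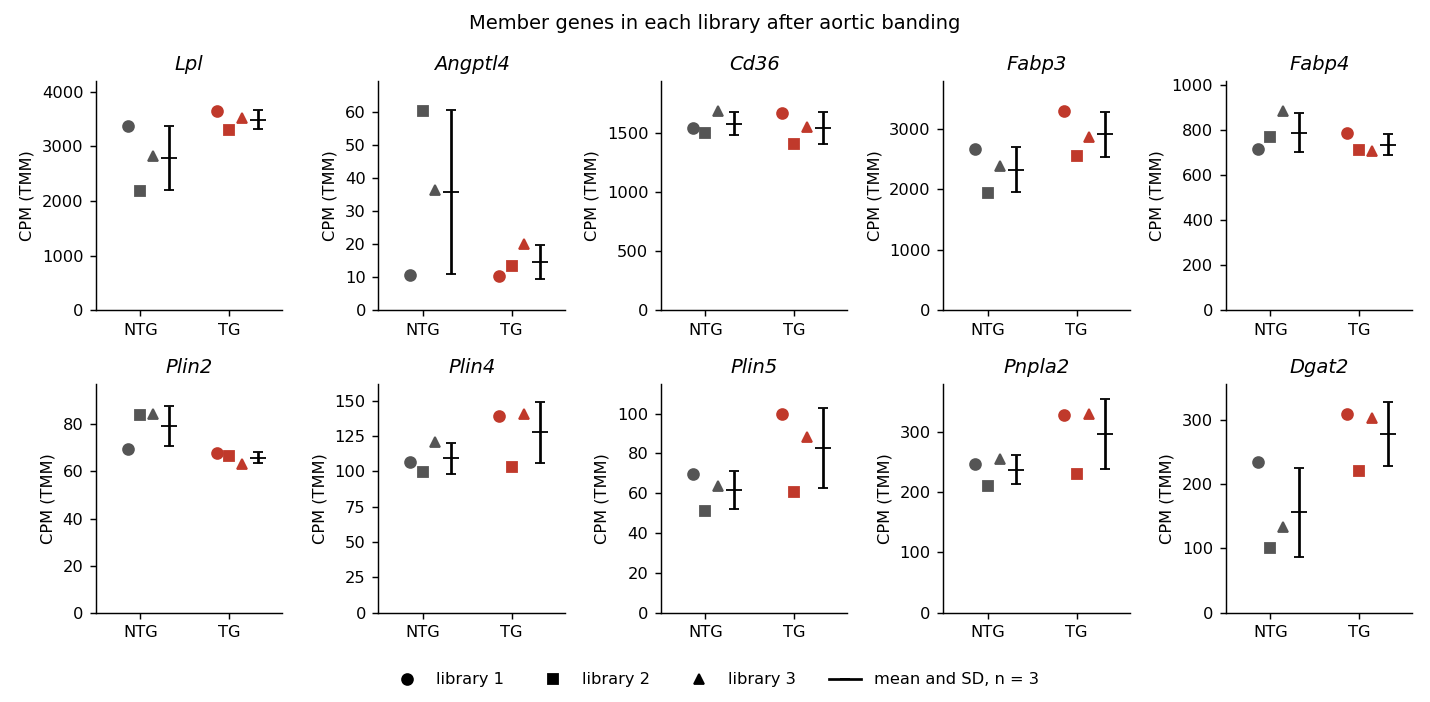
CPM (TMM) of each member in each of the 3 NTG (grey) and 3 TG (red) libraries, every axis starting at 0, with the mean and SD of each group to the right of its points. Only Plin2 has all TG libraries, at 63.3 to 67.9 CPM, below all NTG libraries, and NTG 1 of Dgat2, at 234 CPM, lies above TG 2 at 221 CPM.

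Calls needed an adjusted p below 0.05 and a size above 0.5 on the log2 scale. By edgeR's quasi-likelihood test 0 of 10 members were called, beside 0 of 14774 genes (0%) and a smallest adjusted p of any gene of 0.196. An unadjusted p below 0.05 was reached by 2 of 10 members, beside 18.6% of all genes tested. Of these, Dgat2 was the 1 member higher in TG, where 8.83% of all genes were, and Plin2 the 1 member lower, where 9.76% were. Both shares are near the background and are no result about these genes. DESeq2 called 583 genes (3.95%) and 0 members, edgeR's likelihood-ratio test called 545 genes (3.69%) and 0 members, and limma-voom called 0 genes. Without NTG 1, edgeR called 836 of 15136 genes (5.52%), with Dgat2 as the 1 member, and DESeq2 called 1773 genes (11.7%), among them 2 members, Dgat2 and Angptl4. In edgeR's fit without NTG 1 the log2 fold changes of members not yet given were 0.43 for Fabp3, 0.53 for Plin5, 0.35 for Pnpla2, 0.20 for Plin4, -0.05 for Cd36 and -0.17 for Fabp4. Each library came from 1 heart, and the p-values refer to the spread between these hearts.

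**Figure D3:**
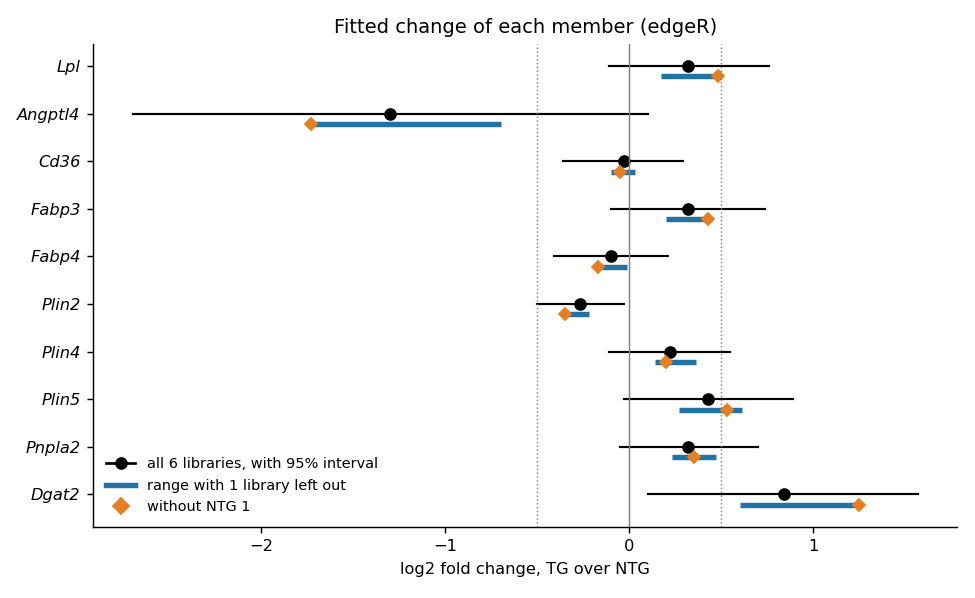
Log2 fold change of TG over NTG for each member from edgeR, with the 95% interval (black), the range with 1 library left out at a time (blue) and the value without NTG 1 (orange diamond), and dotted lines at the fold threshold of 0.5. The intervals of Dgat2 (0.10 to 1.57) and Plin2 (-0.50 to -0.03) exclude 0 before adjustment, and those of the other 8 members include it.

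Several members varied alike over the libraries. Lpl, Fabp3, Plin4, Plin5, Pnpla2 and Dgat2, the 6 with higher fitted values in TG, all had their lowest value in NTG 2, a pattern that their choice by sign favours, and these 6 and Cd36 had their lowest TG value in TG 2. Across the 15 pairs among the 6 genes, Pearson's r of log2 CPM over the 6 libraries ranged from 0.60 to 0.97, which the choice by sign also favours. Angptl4 had r of -0.91 to -0.29 with them and Plin2 -0.93 to -0.41, while Cd36 had 0.65 with Plin4, above the lowest r among the 6. These values describe 6 libraries and hold the group difference within them. NTG 1 lay above TG 2 for 9 of 10 members, all but Angptl4. The cardiomyocyte markers summed to 51913, 35561 and 46963 CPM in NTG and 59883, 51604 and 57735 CPM in TG, lowest in NTG 2 and lowest of TG in TG 2 as for the 6 genes, with 13 of 14 higher in TG and a median log2 fold change of 0.25. The fibroblast markers, such as Pdgfra, Tcf21 and Dpt, summed in the other direction, with most counts in Postn, Gsn, Dcn and Col3a1 (named after their values were seen), at 7101, 12367 and 9142 CPM in NTG and 4687, 6765 and 4769 CPM in TG, with 1 of 10 higher and a median of -0.52. Red blood cell genes, such as Hba-a1, Hba-a2 and Hbb-bs, were at 1309.9, 2245 and 1851 CPM in NTG and 762 to 908 CPM in TG, with 0 of 5 higher and a median of -1.05. The part of these cell types in the members' values was not tested.

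**Figure D4:**
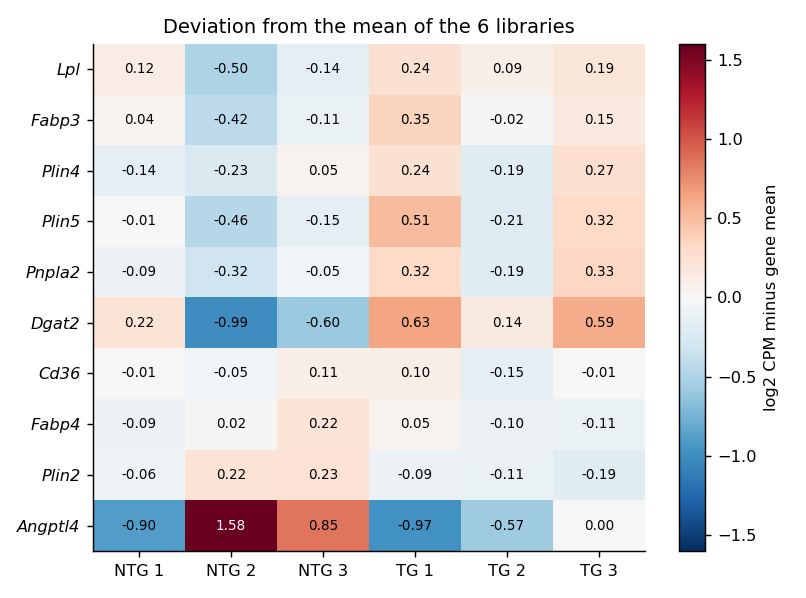
Log2 CPM of each member in each library minus the gene's mean over the 6 libraries, from blue (lower) to red (higher), with the 6 members higher in TG listed first. NTG 2 is lowest for those 6 genes, down to -0.99 in Dgat2, and highest for Angptl4 at 1.58.

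The 3 genes outside the members whose log2 CPM followed Dgat2 most closely over the 6 libraries, out of 14764 compared, were Zdhhc7 (Pearson's r 0.9989), Fbp2 (0.9986) and Gcdh (0.9982). Fbp2, the muscle fructose bisphosphatase, was at 7.37, 1.49 and 2.43 CPM in NTG and at 11.4, 6.48 and 10.3 CPM in TG, with NTG 1 above TG 2 as in Dgat2. Gcdh, a mitochondrial dehydrogenase of lysine breakdown, was at 40.5, 26.1 and 30.8 CPM in NTG and 47.7, 39.5 and 48.3 CPM in TG.

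The median log2 fold change of the 10 members was 0.27, beside -0.0081 over all genes tested, of which 48.7% were higher in TG. The members' median was 0.168 without NTG 2, and the median deviation of the members had an SD of 0.176 between libraries. Other genes of the pathway were written as 5 lists by role. Of 71 such genes, 45 passed the low-count filter, 22 with higher and 23 with lower fitted values in TG and a median log2 fold change of -0.01. By edgeR none was called, 3 were higher and 5 lower at an unadjusted p under 0.05, and DESeq2 called 1 in each direction. These are 6.67% and 11.1% of the 45, beside 8.83% and 9.76% of all genes, and DESeq2's share of all genes was 3.95%. Without NTG 1, edgeR called 3 higher and 3 lower of 47 tested (5.52% of all genes), and DESeq2 8 higher and 4 lower (11.7% of all genes). In that edgeR fit 13 of the 47 were higher at an unadjusted p under 0.05 (27.7%, beside 13.7% of all genes) and 6 lower (12.8%, beside 13.3%).

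Around Lpl, 3 of 8 tested genes of intravascular lipolysis were higher and 5 lower, with a median of -0.06. Lrp1, a receptor that clears lipoprotein remnants, had the smallest p of this list, with a log2 fold change of -0.66 (edgeR unadjusted p = 0.0457, adjusted p = 0.26). Apoe, the most abundant of the list per length, carries lipid between cells and was at 739.5, 926 and 569 CPM in NTG and 455, 599 and 655 CPM in TG, with overlapping groups. For uptake and binding, 3 of 6 were higher, with a median of 0.09. Slc27a3, an acyl-CoA synthetase of the fatty acid transport protein family, was at 4.10, 5.26 and 4.40 CPM in NTG and at 1.95, 1.93 and 1.91 CPM in TG. The groups were well apart at a low level, with a log2 fold change of -1.25 (SE 0.22, edgeR adjusted p = 0.196, DESeq2 adjusted p = 0.00345). Cav1, the caveolar coat protein, had a log2 fold change of -0.01.

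On the droplet itself, 4 of 10 tested coat and growth genes were higher and 6 lower, with a median of -0.08. Fitm1, a muscle protein of the endoplasmic reticulum that promotes droplet formation, was at 34.7, 16.8 and 21.1 CPM in NTG and at 60.0, 37.7 and 55.9 CPM in TG. All TG libraries exceeded all NTG libraries, and NTG 1 again lay nearest to TG, with a log2 fold change of 1.09 (SE 0.29, edgeR adjusted p = 0.196, DESeq2 adjusted p = 0.0101). Rab18, a small GTPase on droplets, had a log2 fold change of -0.06. In lipolysis, 5 of 7 were higher and 2 lower, with a median of 0.18. Lipa, the acid lipase of lysosomes, was at 60.1, 87.9 and 73.4 CPM in NTG and at 56.3, 48.8 and 53.1 CPM in TG. No TG library reached the lowest NTG value, yet the log2 fold change of -0.49 (SE 0.14) had an edgeR adjusted p of 0.196 and a DESeq2 adjusted p of 0.081. Mgll, which finishes the breakdown that Pnpla2 starts, had a log2 fold change of 0.18.

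In the list for triglyceride synthesis, 14 genes besides Dgat2 were tested, 7 higher and 7 lower, with a median of 0.06. The list holds Soat1 and Soat2, which esterify cholesterol rather than make triglyceride, and without them 7 of 12 were higher and 5 lower, with a median of 0.13. Lpin3, a phosphatidate phosphatase, had a log2 fold change of -0.63 (edgeR adjusted p = 0.211), and Gpam, which starts the pathway at mitochondria, was at 141 to 185 CPM in NTG and 141 to 162 CPM in TG. Dgat1, the other enzyme with the reaction of Dgat2 and named here for that after its values were seen, was at 18.9, 23.6 and 17.9 CPM in NTG and 21.9, 19.7 and 18.3 CPM in TG, a log2 fold change of -0.02.

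Fatty acids that are not stored go to the mitochondria to be burned. Of 20 genes of mitochondrial fatty acid oxidation, 19 were higher in TG by fitted value, with a median log2 fold change of 0.47, 13 at an unadjusted p under 0.05 by edgeR where 8.83% of all genes were, none called by edgeR and 4 called by DESeq2 (3.95% of all genes). Their summed CPM was 6757, 4222 and 5300.5 in NTG and 8550.3, 6317 and 8124 in TG, so TG 2 was below NTG 1 here as well. Without NTG 1 the median was 0.66, and edgeR called 7 and DESeq2 17 of the 20 higher, beside 5.52% and 11.7% of all genes in either direction. Without TG 3 the number at an unadjusted p under 0.05 was 7 of 20 (35%, beside 5.35% of all genes). The cardiomyocyte markers moved with this list (13 of 14 higher, lowest in NTG 2 and, within TG, in TG 2) and the fibroblast markers in the other direction (1 of 10 higher), and their part was not tested. The list was chosen with earlier results of these data known, so its shares beside those of all genes are only a description. The difference between this list and the members was not tested.

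**Figure D5:**
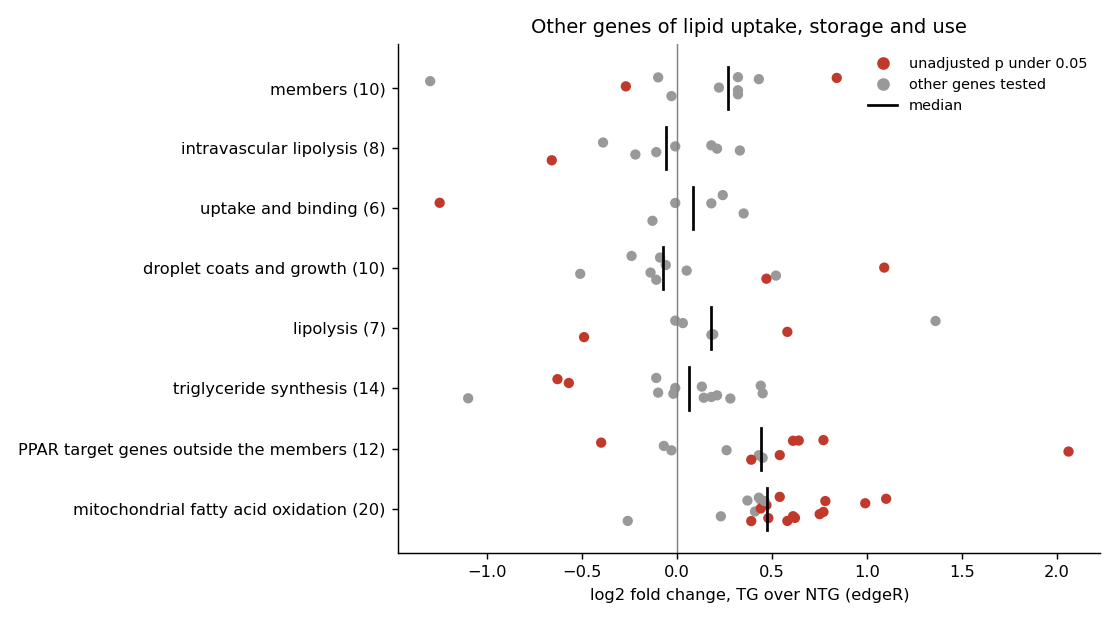
Log2 fold change of TG over NTG (edgeR) for each tested gene of the members, of the 5 lists of the wider pathway, of PPAR targets and of mitochondrial fatty acid oxidation, with the number of genes in brackets, the median as a bar and genes at an unadjusted p under 0.05 in red. Medians run from -0.08 in droplet coats and growth to 0.47 in fatty acid oxidation, with 0.27 for the members.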

How the data were processed

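The authors cleaned the reads, counted them per gene with featureCounts v1.5.0-p3 and predicted further transcripts with StringTie v1.3.3b, and they deposited raw counts, 1 column per heart, without normalization or pooling. The submitters' processing notes also name HISAT2, DESeq2 and GRCh38 with no role, but the gene identifiers and positions are of mouse, and 98.3% of the 54495 genes shared with GENCODE M21 (GRCm38) have identical positions there. Strand setting and handling of multi-mapping reads are not given in the sources used here, so overlapping genes are uncertain. The gene length in the table is the authors' other deposited value. No column of sample values was left unmatched (0).

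These counts were fitted by edgeR 4.0.16 under R 4.3.3 (TMM scaling, filterByExpr by group, robust quasi-likelihood fit, Benjamini-Hochberg adjustment over 14774 genes). Calls needed an adjusted p below 0.05 and a size above 0.5 on the log2 scale. DESeq2 1.42.0 and limma 3.58.1 (voom) were alternatives, with other scalings, filters, a replicate block and each library left out in turn. Single genes also had an exact two-sided permutation test on log2 CPM (prior count 2). RPKM is TMM-scaled CPM per kilobase of the deposited length. Log2 fold changes have standard errors and 95% intervals from edgeR's fit. The fitting steps were tested on simulated counts. Both groups share only an accession or label number as replicate, and deviations of same-numbered libraries had r of 0.081, 0.173 and -0.252, so the main fit has no block.

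All members were named, and from each list of the wider pathway the gene with the smallest unadjusted p and the gene with the highest level per length, from each marker list its first genes (other names are said to be chosen after their values were seen), and the 3 genes most like the member with the smallest p. The members and lists were chosen with earlier results of these data known, and list members come from recalled gene function. Promoter windows are from RefSeq. Each SD holds counting error as well as differences between hearts, and depth per library was 14863568 to 17581220 counts.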

Additional observations from a re-analysis of the deposited data

How the results depend on the processing

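With all genes, 0 were called higher and 0 lower in TG by edgeR. The calls higher and lower were 116 and 116 with no low-count filter, 228 and 355 by DESeq2, 206 and 339 by edgeR's likelihood-ratio test, and 896 and 877 by DESeq2 without NTG 1, an alternative chosen after seeing the data. Leaving out 1 library gave 0 to 404 higher and 0 to 432 lower, the highest values being without NTG 1. Calls among the members went from 0 to 0 to 1 with 1 library left out (1 without NTG 1) and to 2 by DESeq2 without NTG 1. Members at an unadjusted p under 0.05 went from 2 to 0 to 4 with 1 library left out, 4 without NTG 1 (27.0% of all genes) and 4 without TG 2 (19.3% of all genes). With the replicate number as a block, 84 genes were called higher, 147 lower and 0 members, and 5 members had an unadjusted p under 0.05, beside 21.9% of all genes. The numbers pair nothing by the check of deviations, and no call of a member changed under the block. Of 180 fold changes of single members, 177 kept their direction and their side of a call (adjusted p below 0.05 and size above 0.5). Cd36 ranged from -0.097 to 0.03 with 1 library left out, reversing to 0.016 without NTG 3 and to 0.03 without TG 2, and Dgat2 was called without NTG 1, at 1.248. The cause was not tested. With library size alone as scaling, the median of all genes was -0.093. Per-length levels with protein-coding exons only were 763 for Lpl, 849 for Fabp4, 92.7 for Dgat2 and 34.4 for Plin2. Angptl4 had the lowest count of any member, 141 in TG 1, with 157, 1135 and 628 counts in NTG 1 to 3 and up to 325 in TG. The SD of its NTG CPM was 69.3% of the mean.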

Other observations

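Targets of the PPARs, the fatty acid sensing nuclear receptors that also govern several of the genes described above, were read as a further list. Of 16 such genes outside the members, 12 passed the low-count filter, 9 with higher and 3 with lower fitted values in TG, and the median log2 fold change was 0.44. At an unadjusted p under 0.05 by edgeR, 6 were higher and 1 was lower, beside 8.83% and 9.76% of all genes, none was called by edgeR, and DESeq2 called 1, beside 3.95% of all genes. Without NTG 1, edgeR called 2 and DESeq2 7, all higher, beside 5.52% and 11.7% of all genes, and without TG 3 the genes at an unadjusted p under 0.05 were 1 higher and 0 lower, beside 5.35% and 6.09% of all genes in that fit. As in the cardiomyocyte markers (13 of 14 higher), the mean deviation of the list was lowest in NTG 2 (-0.58) and, within TG, in TG 2 (-0.05), the fibroblast markers went in the other direction (1 of 10 higher), and the part of these cell types was not tested. The gene DESeq2 called in all 6 libraries, Acot1, an acyl-CoA thioesterase with near-identical copies whose reads may be shared with them, was at 2.59, 0.797 and 0.868 CPM in NTG and 7.72, 3.47 and 6.30 CPM in TG. Pdk4, the kinase that turns off glucose oxidation, was the 1 lower gene, at 568, 548 and 761 CPM in NTG and 496, 415 and 514 CPM in TG, with a log2 fold change of -0.40 (edgeR adjusted p = 0.255). The list shares 4 genes, Acadm, Cpt1b, Hadha and Slc25a20, with the fatty acid oxidation list, so the 2 lists are not separate evidence. Both were chosen with earlier results of these data known, so their shares are only a description.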
